A study of Mus musculus with 17 samples.

Results

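Tubulin isotypes were followed in total RNA-Seq of cultured mouse lung fibroblasts, through every row of the deposited gene count table whose gene name was one of Tuba1a, Tuba1b, Tuba1c, Tubb2a, Tubb2b, Tubb3, Tubb4b, Tubb5 or Tubb6. These were 9 of 55421 genes in the table, 3 of the alpha and 6 of the beta family. All 9 were among the 10481 genes with a CPM (the count scaled to library size) above 10 in at least 2 libraries, which were the genes tested. Tubb3 passed this filter only through the 4 Ephb4 control bleomycin libraries, so the filter favours its differences from the other groups, and the member counts are also given without it.

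The 17 libraries each came from 1 mouse of either sex carrying a floxed Ephb4 gene and the Col1a2-CreERT2 transgene. At 4 weeks of age the mice received 4-hydroxytamoxifen (1 mg per day on 5 days), which removes Ephb4 from cells that express Col1a2 (Ephb4 CKO), or corn oil (Ephb4 control), so the drug and the deletion cannot be told apart. At 6 weeks they received bleomycin (1.2 U/kg), a drug whose injury to the lung is followed by fibrosis, or PBS. Fibroblasts were grown from the lungs taken on day 14 and passaged 1 time, which gave 4 Ephb4 control PBS, 4 Ephb4 control bleomycin, 5 Ephb4 CKO PBS and 4 Ephb4 CKO bleomycin libraries.

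Total counts per library ranged from 66540022 to 120554468, of which the 9 members took 0.092 to 0.489%. Ephb4 itself measured 2.32 to 33.5 CPM in the Ephb4 control PBS libraries, 13.2 to 65.1 CPM in Ephb4 control bleomycin, 4.01 to 23.6 CPM in Ephb4 CKO PBS and 4.93 to 14.0 CPM in Ephb4 CKO bleomycin. Its count covers the whole gene, and both CKO groups overlapped their controls. The log2 difference of CKO from control was -1.998 ± 0.792 after bleomycin (SE, adjusted p = 0.22, edgeR) and -0.728 ± 0.722 after PBS. The cultures were labelled primary fibroblasts, yet the summed level of 19 macrophage markers stood above that of 14 fibroblast markers in 16 of 17 libraries. The macrophage marker Lyz2 alone measured 863 to 36900 CPM. The lists differ in length and in the level of their genes, so the sums are no measure of cell shares. Counts of Xist and Y-linked genes went against the labelled sex in 3 libraries, those of mouse 2 in the Ephb4 control bleomycin group and of mice 1 and 2 in the Ephb4 CKO bleomycin group, so the member counts below are also given without them. Whether these libraries carry the right group label cannot be checked from the sources used here.

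The Tuba1 genes lie together on chromosome 15 of GRCm38, with Tuba1b at chr15:98931425-98934565 and Tuba1a at chr15:98949837-98953703, both on the minus strand, and Tuba1c at chr15:99029891-99038110 on the plus strand. Tubb2a (chr13:34074274-34078007) and Tubb2b (chr13:34126748-34130466) are neighbours on the minus strand. Tubb3 is at chr8:123411424-123422015 on the plus strand. Tubb4b is at chr2:25222160-25224702 and Tubb5 at chr17:35833921-35838306, both on the minus strand, and Tubb6 is at chr18:67390717-67402749 on the plus strand. The main GENCODE M21 transcript of each member had 4 exons.

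Microtubules are hollow polymers of alpha-beta tubulin dimers that carry cargo, shape the cell and build the mitotic spindle. The genes of each family encode nearly the same protein, and most of what tells isotypes apart lies in the acidic tail at the end of the chain, where enzymes add or remove residues. In fibroblasts, microtubules carry secretory cargo and take part in spreading and contraction. New tubulin chains are folded by prefoldin and the CCT chaperonin and joined into dimers by the tubulin cofactors, and cells lower the stability of tubulin mRNAs when free dimers are in excess.

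Because reads of 75 bases can match more than 1 isotype, the sequences are shown where near-identical members differ most within the coding bases compared, which leave out the last 60. Over 1290 coding bases compared, Tuba1a, Tuba1b and Tuba1c differed at 25, and the longest run without a difference was 239 bases. Coding bases 640 to 699, counted from 1 at the start codon, held 10 of these, shown in capitals. They lie within 1 exon of each gene, at chr15:98950691-98950750 (Tuba1a, minus strand), chr15:98932239-98932298 (Tuba1b, minus strand) and chr15:99037299-99037358 (Tuba1c, plus strand), all GRCm38.
Tuba1a: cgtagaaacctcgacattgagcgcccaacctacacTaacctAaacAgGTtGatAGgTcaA
Tuba1b: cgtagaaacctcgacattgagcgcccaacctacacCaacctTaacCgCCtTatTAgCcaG
Tuba1c: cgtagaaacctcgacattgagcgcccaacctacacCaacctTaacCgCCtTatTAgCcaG
Here Tuba1a stood apart at every marked base, while Tuba1b and Tuba1c differed at 0 of the 60 bases.

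Tubb2a and Tubb2b differed at 44 of 1278 coding bases, with a run of 551 identical bases. Their coding bases 64 to 123, at chr13:34076592-34076651 (Tubb2a) and chr13:34129289-34129348 (Tubb2b) on the minus strand, held 8 differences, in capitals.
Tubb2a: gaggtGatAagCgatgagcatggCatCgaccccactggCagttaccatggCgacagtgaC
Tubb2b: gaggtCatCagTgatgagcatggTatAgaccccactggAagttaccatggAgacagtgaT
Both windows were chosen as those with the most differences, so the other stretches searched hold as many or fewer.

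The first 4 codons, which encode the start of the chain that the autoregulation factor TTC5 recognises on the ribosome, are in capitals in the first 24 coding bases.
Tuba1a: ATGCGTGAGTGCatctccatccat
Tuba1b: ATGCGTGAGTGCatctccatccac
Tuba1c: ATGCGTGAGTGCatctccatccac
Tubb2a: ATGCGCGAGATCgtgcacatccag
Tubb2b: ATGCGAGAGATCgtgcacattcag
Tubb3: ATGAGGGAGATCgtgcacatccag
Tubb4b: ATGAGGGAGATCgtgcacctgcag
Tubb5: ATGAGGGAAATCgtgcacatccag
The 3 alpha genes had the same bases in these codons, and the beta genes varied at the ends of the codons or between synonymous arginine codons.

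The last 60 coding bases of the beta genes hold the acidic tail, with the stop codon in capitals.
Tubb2a: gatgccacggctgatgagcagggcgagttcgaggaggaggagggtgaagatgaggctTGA
Tubb2b: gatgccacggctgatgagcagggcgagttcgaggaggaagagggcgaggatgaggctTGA
Tubb3: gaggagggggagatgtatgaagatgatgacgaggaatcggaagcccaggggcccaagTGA
Tubb4b: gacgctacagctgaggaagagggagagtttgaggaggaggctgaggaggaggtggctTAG
Tubb5: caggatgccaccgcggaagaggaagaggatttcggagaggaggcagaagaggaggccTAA
Tubb2a and Tubb2b differed at 3 of these 60 bases, all between synonymous codons, so both encode the same tail. The coding sequences were 1335 (Tubb5) to 1353 (Tubb3) bases long among the beta genes shown.

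The share of each transcript that could be confused with another gene was counted in windows of 75 bases, the read length. Of such windows, 68.3% in Tuba1a, 71.9% in Tuba1b and 56.7% in Tuba1c occurred unchanged in a transcript of another annotated gene. The values were 43.2% in Tubb2a, 32.2% in Tubb2b and 37.8% in Tubb4b. Tubb3, Tubb5 and Tubb6 shared 0 windows, so their counts rest on sequence of their own. For Tubb4b all shared windows were with 3 processed pseudogenes, mainly Tubb4b-ps1 (514 of 1524 windows).

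**Figure D1:**
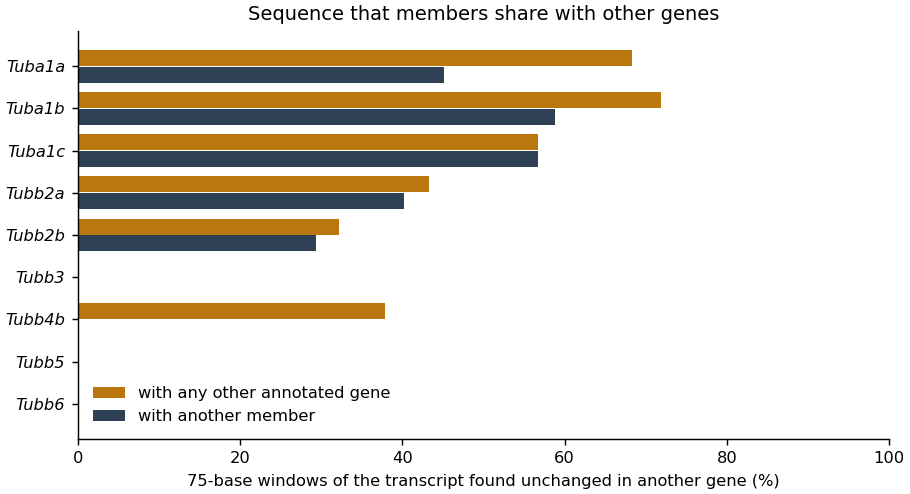
Share of 75-base windows (percent, horizontal axis) of the main transcript of each tubulin isotype that occurs unchanged in any other annotated gene (ochre) or in another of the 9 members (dark). The Tuba1 genes reach 56.7 to 71.9% and Tubb3, Tubb5 and Tubb6 stand at 0.

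The Tuba1 genes shared windows with 10 genes outside the group, 9 of them processed pseudogenes, and counts on these genes equalled 22.1 to 27.7% of the counts on the 3 Tuba1 genes in the same library. Gm14150, with 664 windows in common with Tuba1b, was listed at 41.0 to 101 CPM. Whether those counts came from the pseudogenes or from Tuba1 transcripts was not tested. For the Tubb2 genes the 1 sharing pseudogene held 0.366 to 0.778% of their counts, and for Tubb4b the 3 sharing pseudogenes held 7.5 to 9.15%.

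Of the 7 members in the RefSeq promoter table (GRCm38.p6), the 100 bases before the start held TATAA on either strand (TTATA in reverse) in 3, Tuba1a, Tubb2a and Tubb3, against 10.2% of 32851 promoters. The match is in capitals in 30 bases at chr15:98953562-98953591 (Tuba1a, minus strand), chr13:34078020-34078049 (Tubb2a, minus strand) and chr8:123411510-123411539 (Tubb3, plus strand). In Tubb3 the forward and reverse letters overlap.
Tuba1a: gacagagctgtaTATAAggagccgcatccg
Tubb2a: gcggtccccgggTATAAaaggcggtgctgg
Tubb3: cggggcagcctcTTATAAgagggcgcggcg
Counted from the RefSeq start, the match began 29 bases before it in Tubb2a and 31 in Tubb3 but 78 in Tuba1a. In Tuba1a and Tubb3 the RefSeq start lies downstream of the GENCODE start given above, so the stretch printed is inside the GENCODE gene span. CCAAT, searched on both strands, was present in Tubb3, Tubb4b and Tubb5, against 18.9% of promoters. The letters GGGCGG, also on both strands, were present in Tuba1a, Tuba1b, Tubb2a and Tubb3, against 24.7%. These are letter matches only, and no binding was measured.

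Per kb of exon, Tubb5 and Tuba1b had the highest mean levels over all libraries and Tubb3 the lowest. Tubb5, the main beta isotype of most dividing cells, averaged 209.4 ± 58.4 CPM per kb of exon (SD, n = 17). Tuba1b followed with 195 ± 47.4, Tuba1a with 137 ± 92.7, Tuba1c with 109 ± 22.8, Tubb4b with 82.8 ± 18.8 and Tubb6 with 68.4 ± 34.0 CPM per kb. Tubb2a averaged 34.4 ± 12.9, Tubb2b 14.2 ± 9.07 and Tubb3 2.65 ± 3.63 CPM per kb. Neighbours in this order often changed places: Tubb5 was above Tuba1b in 10 of 17 libraries, Tuba1a above Tuba1c in 9 and Tubb4b above Tubb6 in 11. Tuba1c was above Tubb4b in 16 libraries and Tubb2b above Tubb3 in all 17. Part of this order depends on the length used, an alternative added after seeing the data. Per kb of the longest transcript or of the coding sequence, Tubb5 was above Tuba1b in all 17 libraries and Tuba1a above Tuba1c in 7, while Tubb4b stayed above Tubb6 in 11.

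The order differed between the groups in the place of Tuba1a. In Ephb4 control bleomycin libraries Tuba1a averaged 269.8 ± 66.4 CPM per kb (n = 4), beside Tubb5 at 263 ± 85.4, and was the higher of them in 2 of 4 libraries. Per kb of the longest transcript or of the coding sequence Tubb5 was the higher in all 4. In Ephb4 CKO bleomycin it averaged 86.5 ± 34.3 CPM per kb (n = 4) against 181 ± 13.2 for Tubb5. Tubb6 was above Tubb4b in all 4 Ephb4 control bleomycin libraries, and Tubb4b was above Tubb6 in all 4 Ephb4 CKO bleomycin libraries.

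**Figure D2:**
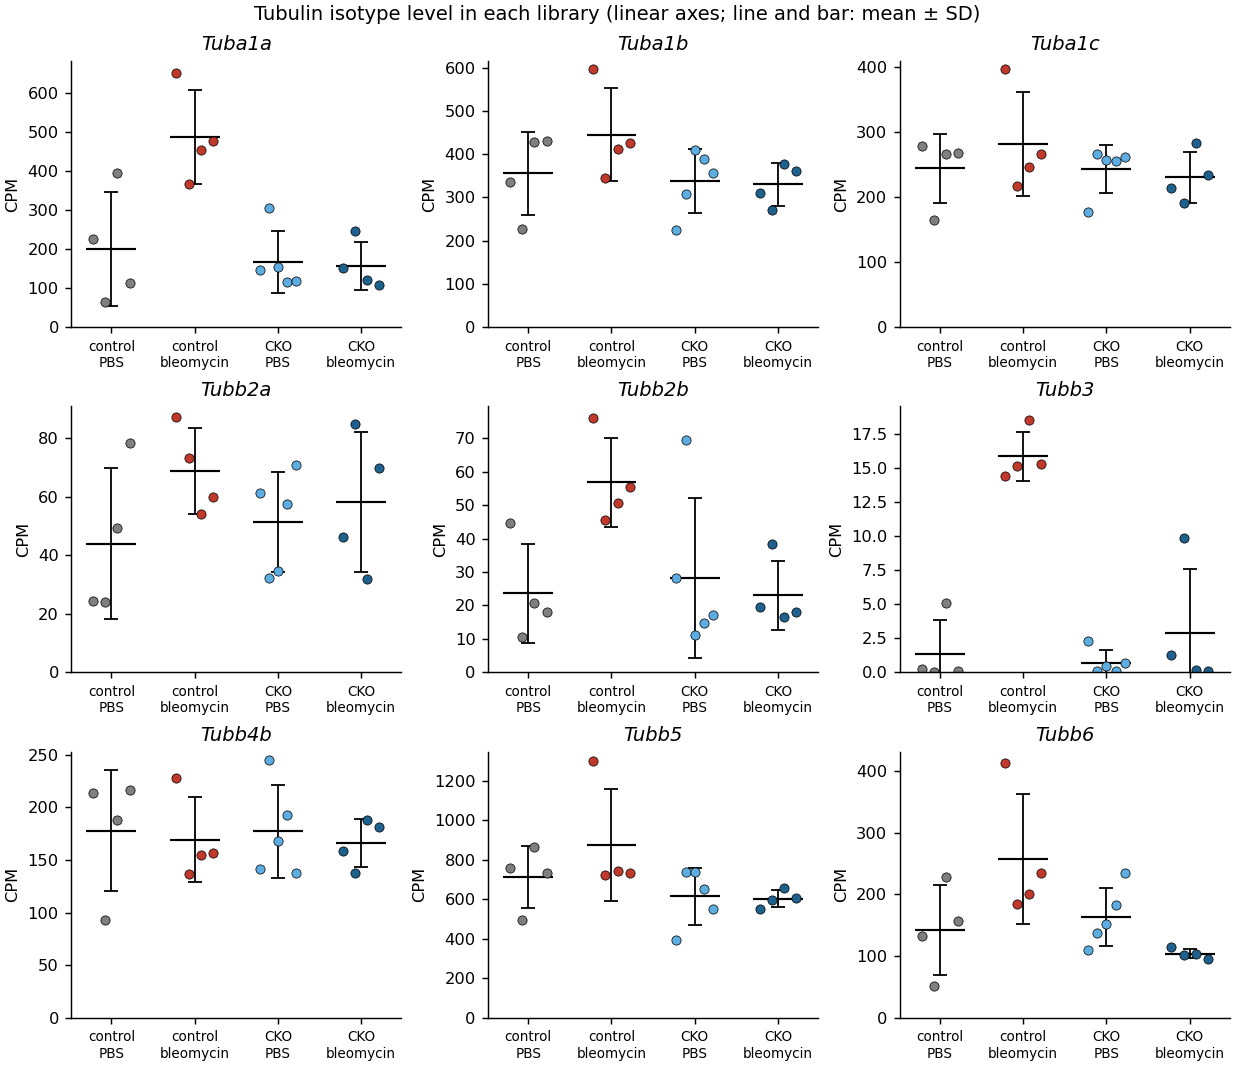
CPM of each isotype (linear vertical axes, 1 panel per gene) in the 17 libraries by group, with the mean as a line and the SD as a bar, cut at 0 for Tubb3. The 4 Ephb4 control bleomycin libraries stand above the other groups for Tubb3 (14.5 to 18.5 CPM), and the 4 Ephb4 CKO bleomycin libraries lie close together for Tubb6 (95.8 to 114 CPM).

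The difference between bleomycin and PBS in mice that keep Ephb4 was read from the Ephb4 control groups. In them 8 of 9 isotypes had a higher mean after bleomycin than after PBS. The median log2 fold change was 0.64 against -0.06 over all genes tested. Tubb3, whose sign the filter favours, is among the 8, and without it the median was 0.484. At an adjusted p under 0.05 (edgeR quasi-likelihood test, Benjamini-Hochberg over all genes) 0 members were called, as were 0% of genes tested, and limma voom and DESeq2 also called 0 members. At an unadjusted p under 0.05, 4 of 9 members were higher and 0 lower, while 6.28% of all genes tested were higher and 7.98% lower. Without Tubb3 it was 3 of 8. DESeq2 called 1.58% of genes at an adjusted p under 0.05, none of them a member, and gave no p for Tubb3.

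Tuba1a, an alpha isotype abundant in developing neurons and also made by mesenchymal cells, measured 225, 65.2, 394 and 112 CPM in the Ephb4 control PBS mice. It measured 651, 366, 452 and 477 CPM after bleomycin. Only PBS mouse 3 reached the range of the bleomycin mice. The fitted difference was 1.29 ± 0.48 on the log2 scale (SE), 2.45-fold, with an adjusted p of 0.32 by edgeR.

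Tubb3, the beta isotype used as a marker of neurons but also made by other cells, measured 0.268, 0.0562, 5.07 and 0.0701 CPM after PBS and 14.5, 15.2, 18.5 and 15.4 CPM after bleomycin. The groups did not overlap, which the filter favours here, and the spread lay in the PBS group, where mouse 3 stood far above the rest. The difference was 3.54 ± 1.64 on the log2 scale, with an adjusted p of 0.349 by edgeR, and it was 6.95 without PBS mouse 3. The 10 neuronal and glial markers together measured at most 6.99 CPM in any library, and 0 of them passed the filter on low counts.

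Tubb2b, a beta isotype of neurons and other growing cells, measured 44.7, 10.7, 20.8 and 18.2 CPM after PBS and 75.9, 45.5, 50.6 and 55.3 CPM after bleomycin. These groups did not overlap, with a difference of 1.27 ± 0.54 on the log2 scale and an adjusted p of 0.332 by edgeR. Tubb6, a beta isotype of non-neuronal cells, measured 132, 52.1, 228 and 157 CPM after PBS and 413, 184, 200.4 and 235 CPM after bleomycin. PBS mouse 3 lay inside the bleomycin range, and the difference was 0.86 ± 0.37 (adjusted p = 0.332, edgeR). Without overlap, 2 of 9 members were higher and 0 lower (1 of 8 without Tubb3), where 5.72% of all genes tested were higher and 3.2% lower without overlap.

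The groups of the other 5 isotypes overlapped, and 0 of the 5 had an unadjusted p under 0.05. Tubb2a measured 23.97 to 78.4 CPM after PBS and 54.3 to 87.5 CPM after bleomycin, a log2 difference of 0.64 ± 0.40. Tuba1b differed by 0.325 ± 0.248 and Tuba1c by 0.205 ± 0.227. Tubb5 differed by 0.30 ± 0.25 and Tubb4b, made in most cells, by -0.072 ± 0.265. The edgeR adjusted p-values of these 5 ran from 0.45 to 0.911. When the counts of the 3 Tuba1 genes were summed, the log2 difference was 0.60 ± 0.25, and it was 0.57 ± 0.25 with the sharing genes added. For Tubb2a and Tubb2b summed it was 0.89 ± 0.33 and for the 6 beta genes summed 0.39 ± 0.25.

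The 4 members at an unadjusted p under 0.05 depended on single mice. Leaving out mouse 1 of the bleomycin group left 1, leaving out PBS mouse 2 also left 1, and leaving out PBS mouse 1 or PBS mouse 4 left 2. Dropping the 3 libraries against the labelled sex left 4. Without PBS mouse 3, the edgeR log2 difference was 1.89 for Tuba1a (adjusted p = 0.0682) and 1.21 for Tubb6 (adjusted p = 0.0907), and the adjusted p for Tubb3 was 0.0735.

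The animal numbers in the labels fall into 2 series, beginning with 11 or 12, whose meaning is not given in the sources used here. All 4 Ephb4 control bleomycin mice were of series 12 and 3 of the 4 Ephb4 control PBS mice of series 11. With the series as a covariate, the log2 difference was 0.78 for Tuba1a, 0.41 for Tubb2b and 1.31 for Tubb3, none of them under an unadjusted p of 0.05. Tubb6 (1.04) stayed under it, and Tuba1b (0.59) was added. The part of the series in these differences was not tested.

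Fibroblast markers moved with these differences. The 14 fibroblast markers, of which 12 passed the filter, summed to 14.3 to 7510 CPM in Ephb4 control PBS and 5990 to 12100 CPM in Ephb4 control bleomycin, with none at 0 in every library of either group. Their median log2 fold change was 2.57, with 12 of 12 positive and 2 at an unadjusted p under 0.05. Thy1, among the 12, averaged 1.38 CPM after PBS and 25.7 CPM after bleomycin, so the filter can favour the sign of such markers. PBS mouse 3, the library highest for Tubb3 in its group, had the 7510 CPM. The 19 macrophage markers summed to 11100 to 47400 CPM after PBS and 1480 to 21400 CPM after bleomycin, with the lowest sum in bleomycin mouse 1, which was the highest of its group for 8 of the 9 isotypes. With the fibroblast level as a covariate, 0 of 9 members had an unadjusted p under 0.05. The log2 difference was then 0.63 for Tuba1a, 1.14 for Tubb3, 1.26 for Tubb2b and 0.70 for Tubb2a. Their unadjusted p-values were 0.238, 0.386, 0.12 and 0.225 by edgeR. The fibroblast level moved with the group, so this fit cannot separate them well. Smooth muscle and pericyte markers summed to 8.74 to 676 CPM after PBS and 2710 to 3910 CPM after bleomycin. Of these, 5 of 5 over the filter were positive, with a median log2 fold change of 3.42 and 3 at an unadjusted p under 0.05. Among the 5, Myh11 averaged 7.47 CPM after PBS and 65.6 CPM after bleomycin, so the filter can favour this sign too. Epithelial markers summed to 164 to 3230 CPM and 264 to 1660 CPM, with 9 of 9 negative and a median of -0.95. What part the marker difference had in the isotype difference was not tested, and in bulk RNA fewer cells of a type and less RNA per cell cannot be told apart.

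**Figure D3:**
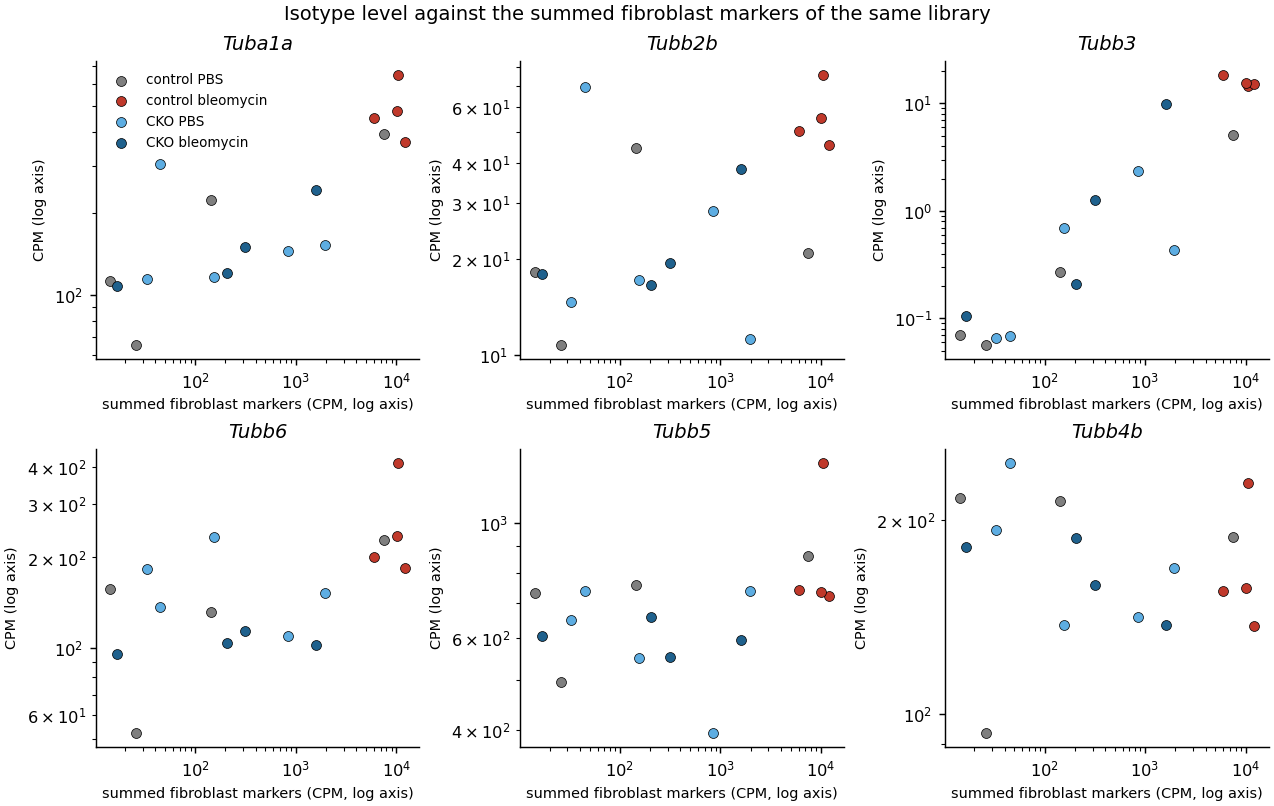
CPM of 6 isotypes (vertical, log axes) against the summed CPM of 14 fibroblast markers in the same library (horizontal, log axes), coloured by group. For Tubb3, the 5 libraries with summed markers of 5990 CPM or more lie at 5.07 CPM or more. Ephb4 CKO bleomycin mouse 2 lies at 9.88 CPM of Tubb3 with a sum of 1600 CPM. The Ephb4 CKO PBS libraries, with sums up to 1960 CPM, lie at 2.34 CPM of Tubb3 or less. For Tubb4b the Ephb4 control bleomycin libraries (137 to 228 CPM) lie within the range of all libraries (93.4 to 245 CPM).

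The effect of the deletion under injury was read from Ephb4 CKO against Ephb4 control after bleomycin. All 9 isotypes had a lower mean in the CKO libraries, with a median log2 fold change of -0.54 against 0.01 over all genes tested. Tubb3, whose sign the filter favours here too, is among the 9, and without it the median was -0.485. The edgeR test called 0 members and 0% of genes at an adjusted p under 0.05. At an unadjusted p under 0.05, 4 of 9 members were lower and 0 higher, where 9.18% of all genes were lower and 11% higher. Without overlap, 5 of 9 were lower and 0 higher, where 12.2% of all genes were lower and 11% higher. Without Tubb3 these were 4 of 8 and 4 of 8. DESeq2, which called 3.81% of genes, called 2 members, Tubb6 (adjusted p = 0.0273) and Tuba1a (adjusted p = 0.0335), and limma voom called 0.

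Tubb6 measured 114, 102, 104 and 95.8 CPM in the Ephb4 CKO bleomycin mice against 413, 184, 200.4 and 235 CPM in the controls. The groups did not overlap, and the CKO mice differed among themselves by an SD of 7.59 CPM against 105 CPM in the controls. The difference was -1.31 ± 0.37 on the log2 scale, 2.48-fold lower, with an adjusted p of 0.196 by edgeR. Tubb6 shares no read-length window with another gene.

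Tuba1a measured 151, 245, 121 and 108 CPM in the CKO mice against 366 to 651 CPM in the controls, without overlap. The difference was -1.64 ± 0.49 on the log2 scale, 3.12-fold lower (adjusted p = 0.197, edgeR). Tubb2b measured 19.4, 38.4, 16.5 and 17.9 CPM against 45.5 to 75.9 CPM in the controls, a difference of -1.30 ± 0.54 (adjusted p = 0.226, edgeR). Tubb5 measured 552, 596, 659 and 606 CPM against 1302, 725, 742 and 736 CPM, where control mouse 1 alone stood far above the rest. Its difference was -0.54 ± 0.25 (adjusted p = 0.246, edgeR).

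Tubb3 measured 1.26, 9.88, 0.209 and 0.106 CPM in the CKO mice, all below the lowest control at 14.5 CPM and all under the filter of 10 CPM that the controls passed. The CKO mice differed widely among themselves, so that the log2 difference of -2.47 had an SE of 1.57 (adjusted p = 0.351, edgeR). Mouse 2, at 9.88 CPM, is 1 of the 3 libraries against the labelled sex, and without all 3 the log2 difference was -6.71 with an adjusted p of 0.302. The remaining 4 isotypes overlapped between genotypes, with log2 differences of -0.43 ± 0.25 for Tuba1b, -0.29 ± 0.23 for Tuba1c, -0.24 ± 0.40 for Tubb2a and -0.027 ± 0.265 for Tubb4b, at edgeR adjusted p-values of 0.31, 0.445, 0.73 and 0.961. Summed rows gave -0.76 ± 0.25 for the Tuba1 genes, -0.73 ± 0.25 with the sharing genes added, -0.63 ± 0.33 for Tubb2a with Tubb2b and -0.59 ± 0.25 for the 6 beta genes.

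The count of 4 members became 2 when control mouse 1 was left out, and also when CKO mouse 1, mouse 3 or mouse 4 was. Without the 3 libraries against the labelled sex it was 4, with Tubb3 in place of Tubb5, in a comparison of 2 with 3 mice. All 4 Ephb4 control bleomycin mice were of number series 12, and 2 of the Ephb4 CKO bleomycin mice were of series 11. With the series as a covariate the count was 3, and the log2 difference was -0.647 for Tubb2b and -0.624 for Tuba1b. The part of the series in these differences was not tested. Both comparisons use the same 4 Ephb4 control bleomycin mice, so a high level in these mice enters both with opposite sign.

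**Figure D4:**
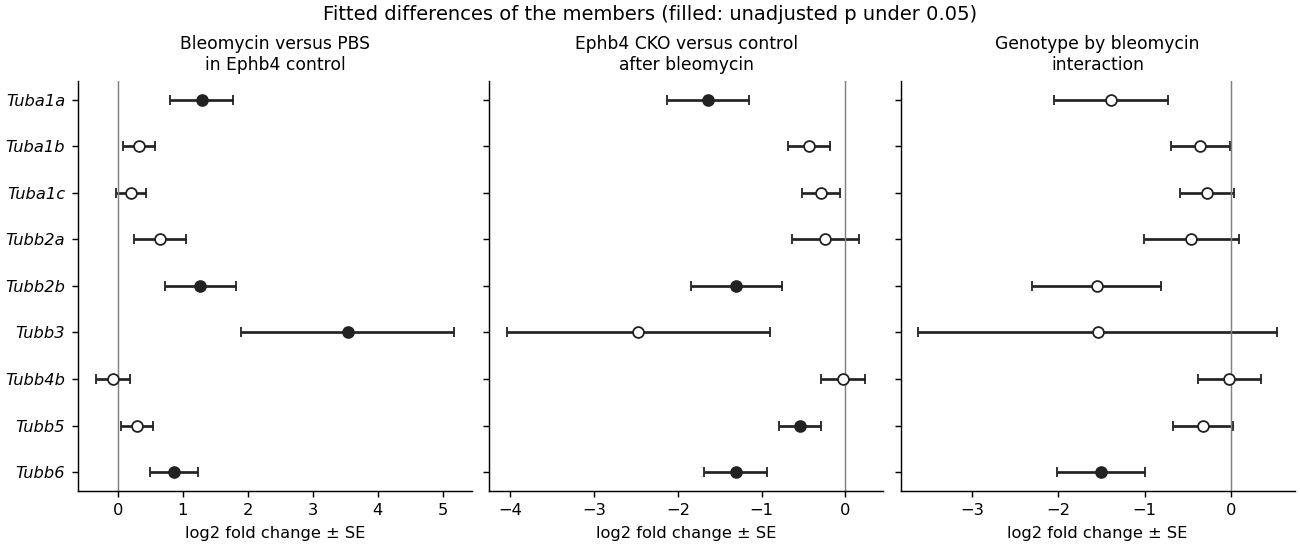
Fitted log2 fold change of each isotype with its SE (horizontal axes) in bleomycin versus PBS in Ephb4 control, Ephb4 CKO versus control after bleomycin, and the interaction, with filled points at an unadjusted p under 0.05. Tuba1a, Tubb2b and Tubb6 are filled in both comparisons of the first and second panels (1.29, 1.27 and 0.86, then -1.64, -1.30 and -1.31), and Tubb4b lies near 0 in all 3 panels.

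Fibroblast markers summed to 16.7 to 1600 CPM in Ephb4 CKO bleomycin, under the 5990 to 12100 CPM of the controls. Of these, 12 of 12 over the filter were negative, with a median log2 fold change of -3.61, a sign that the filter can favour here too. Smooth muscle and pericyte markers summed to 24.2 to 1870 CPM against 2710 to 3910 CPM. CKO mouse 2, highest of its group for Tuba1a, Tubb2a, Tubb2b and Tubb3, had the highest sum of both lists. Macrophage markers summed to 24500 to 45000 CPM against 1480 to 21400 CPM, with 19 of 19 positive. With the fibroblast level as a covariate 0 of 9 members had an unadjusted p under 0.05, and the log2 difference was -0.96 for Tuba1a, -0.95 for Tubb6, -1.29 for Tubb2b and -0.13 for Tubb3. With the macrophage level as a covariate Tubb6 (-0.865) was the only member under 0.05. Both marker levels moved with the group, so these fits cannot separate them well. The part of the cell markers in the isotype differences was not tested.

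Without injury the genotypes gave smaller differences. In Ephb4 CKO against control after PBS, log2 differences ran from -0.92 (Tubb3, SE 1.41) to 0.25 (Tubb2b, SE 0.51), with a median of -0.007 and adjusted p-values of 1.0 by edgeR. At an adjusted and at an unadjusted p under 0.05, 0 of 9 members were called by edgeR, limma voom or DESeq2, where 0% of genes passed the first and 1.43% were higher and 0.563% lower by the second in edgeR. All 9 members overlapped between these groups. Within the Ephb4 CKO PBS group, mouse 2 stood high for Tuba1a (306 CPM against 115 to 154 in the others) and Tubb2b (69.4 against 11.2 to 28.4 CPM) with Tubb3 at 0.0678 CPM. That library summed to 45.1 CPM for fibroblast markers, 3900 CPM for epithelial and 993 CPM for mesothelial markers, the highest of all libraries for both. Ephb4 control PBS mouse 1, with the highest Tubb2b of its group (44.7 CPM), had 3230 CPM of epithelial markers, next after it. In Ephb4 CKO PBS mouse 2, Krt19 (390 CPM) entered both sums, and Msln (602 CPM) made up most of the rest of the mesothelial sum. Upk3b was at 0.102 CPM there, and 2 of the 6 mesothelial markers passed the filter.

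In Ephb4 CKO mice, bleomycin against PBS gave log2 differences of -0.65 ± 0.35 for Tubb6 to 1.99 ± 1.43 for Tubb3, with 7 of 9 negative and a median of -0.08. By edgeR 0 members and 0% of genes had an adjusted p under 0.05, and 0 members had an unadjusted p under 0.05 by edgeR, limma voom or DESeq2, against 0.248% of genes higher and 0.716% lower in edgeR. Leaving out Ephb4 control PBS mouse 2, a library of neither group that enters through the shared spread, gave 1. Tubb6 measured 109, 137, 153, 183 and 234 CPM after PBS and 95.8 to 114 CPM after bleomycin.

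The test of whether bleomycin acted differently in the 2 genotypes was the interaction, and its log2 value was negative for all 9 isotypes. For Tubb3 the filter favours this sign. The log2 value was -1.51 ± 0.51 for Tubb6, -1.39 ± 0.66 for Tuba1a and -1.56 ± 0.75 for Tubb2b by edgeR. The adjusted p-values ran from 0.916 to 0.997, with 0 members and 0% of genes called. At an unadjusted p under 0.05, 1 of 9 members was lower, Tubb6, against 1.57% of genes lower and 1.89% higher. It became 2 when mouse 2 of Ephb4 control bleomycin, mouse 1 of Ephb4 control PBS or mouse 3 of Ephb4 CKO PBS was left out. It became 3 when mouse 3 of Ephb4 control PBS, mouse 2 of Ephb4 CKO bleomycin, or mouse 4 or 5 of Ephb4 CKO PBS was left out, and 4 without the 3 libraries against the labelled sex.

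The makeup of each pool was described as the share of each isotype in the alpha or beta counts per kb of exon, with no test. The alpha pool is the 3 Tuba1 members and the beta pool the 6 beta members. Another alpha gene, Tuba4a (34.8 to 125 CPM), and the genes that share windows with members are left out. Tuba1a made up 42.0 to 43.5% of the alpha pool in the 4 Ephb4 control bleomycin libraries, above every library of the other groups (15.2 to 38.8%). In Ephb4 CKO bleomycin its share was 24.4, 37.4, 17.1 and 16.8%. Tuba1b made up 37.7 ± 0.444% in Ephb4 control bleomycin and 48.4 ± 6.33% in Ephb4 CKO bleomycin (SD, n = 4 each). On coding length alone, the Tuba1a share in Ephb4 control bleomycin was 39.3 to 40.7%.

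In the beta pool Tubb5 held 47.8 to 51.1% in Ephb4 control bleomycin and 49.5 to 55.4% in Ephb4 CKO bleomycin, which overlapped. On coding length alone its share was 58.6 to 61.6% and 61.6 to 66.1%. Tubb6 held 17.5 to 22.1% in Ephb4 control bleomycin and 10.9 to 14.3% in Ephb4 CKO bleomycin, without overlap. Tubb4b, whose level hardly differed, held 14.3 to 16.7% in the first and 18.2 to 25.1% in the second. Tubb3 stayed at most 2.23% of the pool. The 3 Tuba1 members of the alpha pool summed to 630.5 ± 158 CPM per kb in Ephb4 control bleomycin and 363 ± 21.3 in Ephb4 CKO bleomycin. The 6 members of the beta pool summed to 526 ± 160 and 351 ± 16.7 (n = 4 each).

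**Figure D5:**
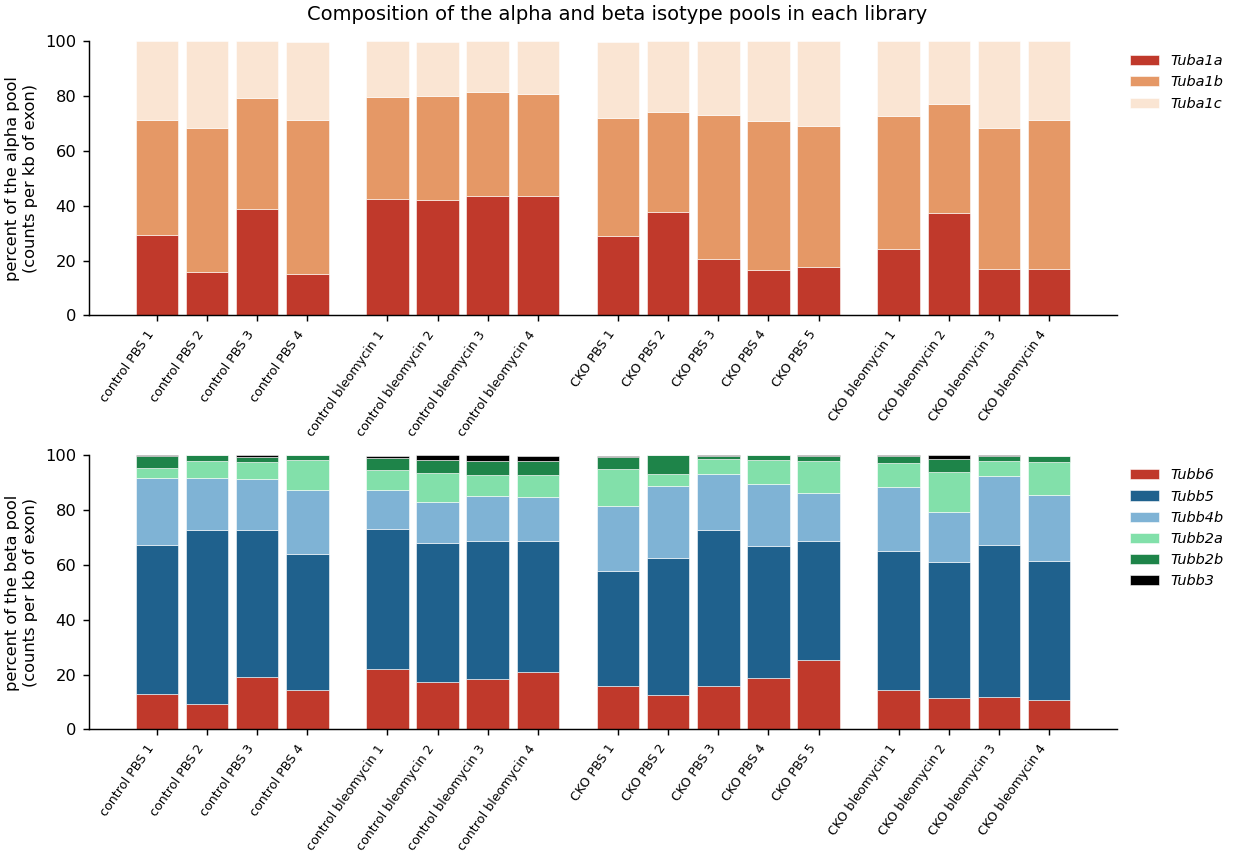
Percent of the alpha (upper) and beta (lower) pool of the 9 members taken by each gene in every library, from counts per kb of exon, with 1 stacked bar per library. The Tuba1a segment is 42.0 to 43.5% in all 4 Ephb4 control bleomycin bars, and the Tubb6 segment is 10.9 to 14.3% in the Ephb4 CKO bleomycin bars.

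Other genes that make, fold or use tubulin were read from lists, by their counts and medians. The shares of all genes tested to set beside these counts are, at an unadjusted p under 0.05, 6.28% higher and 7.98% lower after bleomycin in Ephb4 control and 11% higher and 9.18% lower in Ephb4 CKO after bleomycin. Without overlap they are 5.72% and 3.2% in the first comparison and 11% and 12.2% in the second. Of 11 other tubulin genes 2 passed the filter, Tuba4a and Tubg1, the gamma-tubulin of microtubule nucleation. Tuba4a, an alpha isotype typical of differentiated cells, averaged 48.7 CPM in Ephb4 control bleomycin and 81.9 CPM in Ephb4 CKO bleomycin without overlap, a log2 difference of 0.75 ± 0.39 (adjusted p = 0.272, edgeR), opposite in sign to every member. It averaged 73.9 CPM after PBS in Ephb4 control, where bleomycin against PBS gave -0.60 ± 0.39 (adjusted p = 0.467, edgeR).

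All 8 subunits of the CCT chaperonin had a higher mean after bleomycin in Ephb4 control, with a median log2 fold change of 0.23 and 0 at an unadjusted p under 0.05. In Ephb4 CKO against control after bleomycin, 8 of 8 were lower in mean with a median of -0.34, and 2 had an unadjusted p under 0.05. These were Cct6a (-0.50 ± 0.20, adjusted p = 0.22) and Cct2 (-0.47 ± 0.21, adjusted p = 0.232, edgeR). Prefoldin was mixed, with 3 of 5 subunits over the filter positive after bleomycin in Ephb4 control (median 0.035) and 2 of 5 in Ephb4 CKO against control after bleomycin (median -0.26). In the second, 1 was higher at an unadjusted p under 0.05, Pfdn5 (0.56 ± 0.22, adjusted p = 0.22). Of the 6 tubulin cofactors 0 had an unadjusted p under 0.05 in that comparison, while Arl2, a small GTPase of the cofactor complex, was higher after bleomycin in Ephb4 control (0.35 ± 0.15, adjusted p = 0.335, edgeR).

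The product of Ttc5 marks tubulin mRNAs for decay during translation. Ttc5 differed in sign from 8 of 9 isotypes after bleomycin in Ephb4 control and from all 9 in Ephb4 CKO after bleomycin. It averaged 25.0 CPM in Ephb4 control PBS, 18.1 CPM in Ephb4 control bleomycin and 25.3 CPM in Ephb4 CKO bleomycin, without overlap in either comparison. The log2 differences were -0.465 ± 0.145 (adjusted p = 0.289) and 0.483 ± 0.145 (adjusted p = 0.197) by edgeR. Its partners Scaper and Cnot11 overlapped in both, with adjusted p-values of 0.454 or more. Whether Ttc5 bears on the isotype levels was not tested.

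Among 10 genes over the filter from a list of tubulin-modifying enzymes and related genes, 2 were higher after bleomycin in Ephb4 control. These were Ttll12 and Ttl, the product of which puts tyrosine back on alpha-tubulin. Ttll12 averaged 16.6 and 28.7 CPM (0.79 ± 0.28) and Ttl 13.9 and 18.5 CPM (0.415 ± 0.184). In Ephb4 CKO after bleomycin Ttll12 averaged 16.1 CPM (-0.84 ± 0.28, edgeR) and was the only gene of the 10 at an unadjusted p under 0.05. Adjusted p-values of these were 0.208 to 0.336.

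Of 17 lattice-binding and plus-end proteins over the filter, 3 were higher at an unadjusted p under 0.05 after bleomycin in Ephb4 control. Map1b, which stabilises microtubules in growing cells, averaged 25.1 and 83.9 CPM (1.74 ± 0.805) without overlap, with Map4 at 0.41 ± 0.19 and Map1s at 0.55 ± 0.22 on the log2 scale. In Ephb4 CKO after bleomycin Map1b averaged 20.0 CPM (-2.07 ± 0.81) and the minus-end protein Camsap1 17.6 against 31.7 CPM (-0.85 ± 0.33), while the plus-end protein Mapre2 was higher (0.67 ± 0.29, edgeR). All 3 stood without overlap, at adjusted p-values of 0.219 to 0.23.

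Of 15 motor genes over the filter, the kinesin light chain Klc1 had the smallest p in both comparisons, 0.49 ± 0.15 after bleomycin (adjusted p = 0.291) and -0.425 ± 0.153 with the deletion (adjusted p = 0.212). Dctn1 of the dynactin complex was higher after bleomycin (0.426 ± 0.175, adjusted p = 0.323). Of 10 genes of the gamma-tubulin complex, Cdk5rap2 was lower after bleomycin in Ephb4 control (-0.40 ± 0.19, adjusted p = 0.349, edgeR), with 0 at an unadjusted p under 0.05 in the genotype comparison. Of 8 severing and destabilising proteins over the filter, 0 had an unadjusted p under 0.05 in either comparison. Proliferation genes, whose products include spindle proteins, were higher in mean for 9 of 12 after bleomycin and lower for 11 of 12 in Ephb4 CKO after bleomycin, with Pcna the only one at an unadjusted p under 0.05 (0.67 ± 0.25, adjusted p = 0.218, edgeR), in the opposite direction.

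The genes whose log2 CPM followed each member most closely over the 17 libraries are given as a description, since all libraries share the difference in cell markers. Tuba1a was most like Zfp518b (Pearson r = 0.975), Kpnb1 (0.954) and Glo1 (0.954). Tubb3 was most like Fam171b (0.976), Rhoj (0.968) and Akap12 (0.963), and Tubb2b most like Myo1c (0.932), Sptan1 (0.931) and Ptpn11 (0.919). Tubb2a followed Mrpl54 (0.913), Ttpal (0.91) and Vim (0.906), the last the intermediate filament vimentin, and Tubb5 followed Hmgn1 (0.956), Rbmxl1 (0.951) and Ppih (0.934).

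For the other members, sequence-sharing genes led. Tuba1b was most like Gm14150 (0.975), Snrpa1 (0.914) and Gm6682 (0.912), and Tuba1c most like Gm5620 (0.95), Gm14150 (0.932) and Srsf7 (0.889). Tubb4b was most like Tubb4b-ps1 (0.976), then Lsm6 (0.844) and Pak4 (0.841). Each of these Gm genes and Tubb4b-ps1 is a processed pseudogene with windows in common with the member it followed. Tubb6 was most like Gm3226 (0.877), Gm17383 (0.869) and Gm6682 (0.861), pseudogenes of the Tuba1 genes with which it shares 0 windows.

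Among the members themselves Tuba1b and Tuba1c had an r of 0.89 and Tuba1b and Tubb5 of 0.86, while Tuba1a was closest to Tubb2b (0.85) and Tubb3 (0.79). Tubb3 and Tubb4b had an r of -0.18 and Tubb2a and Tubb4b of 0.04, so the isotypes did not vary as 1 block.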

How the data were processed

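Total RNA of fibroblast cultures from 17 mice was sequenced after ribosomal RNA removal, in pairs of 75 bases with a strand-specific kit. Per the labels, the authors used cutadapt 1.18, HISAT2 2.1.0 and StringTie on GRCm38, and the deposited counts are whole numbers per gene derived by StringTie from transcript coverage, which divides coverage among near-identical transcripts and was not normalized. The study's model used a batch number, which is not given per library in the sources used here, so no batch term was fitted. Ephb4 control and Ephb4 CKO groups came from the labels.

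Here, CPM used TMM library sizes. Genes above 10 CPM in at least 2 libraries were tested with edgeR 4.0.16 (R 4.3.3) over all 17 libraries, 1 mean per group, with Benjamini-Hochberg adjustment. DESeq2 1.42.0, limma voom 3.58.1, other library sizes and filters, covariates and leaving out mice were alternatives. The procedure was tested on simulated data with changes larger than those of most members, which does not show whether smaller differences would be found. Spans and transcripts came from GENCODE M21, coding identities were aligned with Biopython 1.88, and promoters came from RefSeq (7 of 9 members matched). All 9 members are named. For each gene list up to 3 genes with the smallest p are named, and for each member the 3 most alike genes. The members and lists were chosen with earlier results of these data known. Summing the genes that share windows and ordering members by other lengths were added after seeing the data. Depth limits only the lowest values (Tubb3 at 4 counts or more), and a floor would cover counting error only.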

Additional observations from a re-analysis of the deposited data

Results flagged for a closer look

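In each group the highest and lowest mouse was compared with the others on the log2 scale by Dixon's rule, in 36 combinations of member and group, of which chance alone flags about 1 in 20. Single mice stood apart in 4. Tuba1c was 165 CPM in Ephb4 control PBS mouse 2, against 266 to 279 CPM in the other mice of that group, and 178 CPM in Ephb4 CKO PBS mouse 1, against 256 to 266 CPM. Tubb4b was 93.4 CPM in the same Ephb4 control PBS mouse 2, against 188 to 216 CPM. Tubb5 was 1302 CPM in Ephb4 control bleomycin mouse 1, against 725 to 742 CPM. That library also had the lowest summed macrophage markers of all, 1480 CPM. What sets these mice apart was not tested.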

How the results depend on the processing

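The edgeR count of members at an adjusted p under 0.05 was 0 in all 5 comparisons and stayed 0 under every alternative run except DESeq2 in Ephb4 CKO versus control after bleomycin, which called 2. At an unadjusted p under 0.05, the count of 4 after bleomycin in Ephb4 control became 2 with the number series of the animal labels, 0 with the fibroblast level and 1 with the macrophage level as a covariate, and 1 to 4 with a mouse left out. The count of 4 in Ephb4 CKO versus control after bleomycin became 0 with the fibroblast and 1 with the macrophage level, and 2 to 4 with a mouse left out. After bleomycin in Ephb4 CKO the count of 0 became 1 with only the groups compared, and 0 to 1 with a mouse left out. The interaction count of 1 became 3 with filterByExpr, without a filter or with DESeq2, 2 with limma voom, 4 without the libraries against the labelled sex, and 1 to 3 with a mouse left out. Of 522 log2 differences of single members under the alternatives, 508 kept their sign and side of the threshold and 12 changed sign. After bleomycin in Ephb4 control these were Tuba1c (-0.031) and Tubb5 (-0.027) with the macrophage level, and Tubb4b with the fibroblast level (0.056), without the libraries against the labelled sex (0.032) and with a mouse left out (-0.261 to 0.035). In Ephb4 CKO versus control after bleomycin they were Tuba1c (0.029) and Tubb4b (0.329) with the macrophage level, and Tubb4b with the number series (0.017) and with a mouse left out (-0.116 to 0.122). The cause was not tested. No paired analysis was possible because the groups compared share fewer than 2 label numbers, and no label says that a number marks a shared litter, batch or day. Of 36 isotype shares recomputed on the longest transcript or the coding length, 18 moved by more than the SD between mice.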
